A study of Homo sapiens with 8 samples.

Results

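RNA sequencing was used to ask what else moved in SK-N-MC cells when the enhancer of LOXHD1 was silenced. SK-N-MC is an established Ewing sarcoma (EwS) line, grown from a tumor driven by the fusion transcription factor EWSR1::FLI1. The 4 SK-N-MC libraries of an 8-library series were chosen by their labels: 2 libraries of cells with the silenced enhancer, called eKD2, and 2 control libraries. The other 4 libraries are the same pair of groups in RD-ES, another EwS line, and enter here for the spread between replicates and for the test of a difference between the lines. Per the labels, eKD2 cells carried dCas9-KRAB, a cutting-dead Cas9 joined to a repressor domain, and a guide RNA that targets DNA beside a GGAA repeat in LOXHD1, whereas control cells carried the empty lentiviral dCas9-KRAB vector. The study's text also calls the comparison cells parental. Cells were infected at a multiplicity of 10, were selected for 3 days with puromycin at 1 µg/ml and were used within 5 passages. They were therefore mixed pools and not single clones, and 1 guide in each line stands for the silencing. Each gene's level was its FPKM, the fragments mapped to it, scaled to its transcript length and to the library's total. Of the 60332 genes in the table, 14773 averaged 1 FPKM or more across the 4 libraries. With 578 small RNA genes left out, 14195 genes were tested.

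EWSR1::FLI1 binds runs of GGAA, short repeats that are silent in other cells, and turns them into enhancers. The KRAB domain, taken from the zinc finger protein ZNF10, recruits TRIM28 and histone methyltransferases that lay down repressive chromatin around the DNA to which Cas9 is directed. LOXHD1 is known as a protein of the stereocilia of inner ear hair cells and is built of PLAT domains, which are thought to hold proteins at membranes.

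The silenced element is a repeat of 9 uninterrupted GGAA units in an intron of LOXHD1, the longest such run that the gene holds. On build GRCh37, LOXHD1 spans chr18:44056935-44237183 on the minus strand. Among runs of at least 4 units, the gene holds 1 more, of 5 units.

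LOXHD1 was the gene with the smallest p-value. Its level was 159 and 169 FPKM in the controls and 11.0 and 11.95 FPKM in the eKD2 libraries. The groups did not overlap, and the mean was 93.0% lower in eKD2 cells (log2 difference of -3.73, SE 0.0927, n = 2 libraries a group, limma adjusted p = 1.4e-05). The labels and the level of the targeted gene were thus in step in each library. In such pooled cells, fewer cells with LOXHD1 RNA and less of it in each cell cannot be told apart. LOXHD1 stayed called when any 1 of the 4 libraries was left out.

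ZNF10, the gene that supplies the KRAB domain of the silencing protein, had the largest log2 difference among the called genes that rose. It was at 7.65 and 10.2 FPKM in the controls and at 65.1 and 59.6 FPKM in eKD2 cells (log2 difference of 2.68, SE 0.144, limma adjusted p = 0.0017). In RD-ES the controls were at 8.89 and 9.68 FPKM and the eKD2 libraries at 56.1 and 49.0 FPKM. Each eKD2 library of both lines therefore stood above each control, although the labels give both groups a dCas9-KRAB vector. Values per gene cannot tell reads of the vector from reads of the cell's own ZNF10. Whether the 2 groups carried the same amount of vector, and what part it had in the results that follow, was not tested.

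All 10 markers fixed for EwS cells were at 1 FPKM or more, and their summed level ranged from 1100 to 1260 FPKM over the 4 libraries. Skeletal muscle markers and the endothelial markers VWF and CDH5 were each under 1 FPKM. PECAM1, also fixed for endothelium, had no entry under that name. Of the fibroblast markers, 3 of 4 were expressed, with DCN at 134 to 159 FPKM. PTPRC, a blood cell marker, was at 19.2 to 22.6 FPKM in all 4 libraries. CD3E, KRT5 and MYOG were listed at 0. Libraries correlated across genes with r from 0.981 to 0.988. Depth is unknown from FPKM, but steps in 2071 low genes placed control 2 at about 0.438 times the depth of control 1 and the eKD2 libraries at about 0.785 and 0.829 times. Only 10.4% to 11.8% of those genes lay at these ratios, so they are rough.

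The transcriptome moved little in size. The median absolute log2 difference was 0.143, and 90% of genes moved by less than 0.411. Both eKD2 libraries lay on one side of both controls, called separated here, in 7021 genes, which is 49.5% of those tested. Of all genes tested, 23.1% were separated and higher in eKD2 cells (3272 genes) and 26.4% were separated and lower (3749 genes). A ratio of at least 1.5 between group means of FPKM + 1 was reached as well by 321 genes with a higher level (2.26%) and by 176 with a lower level (1.24%). Under limma at an adjusted p under 0.05, 33 genes were called, 0.232% of those tested. The 13 that rose were 0.0916% and the 20 that fell 0.141%. All 33 were separated, and in 16 the difference was 2-fold or more. Before adjustment, p was under 0.05 for 905 genes with a higher level (6.38%) and 1083 with a lower level (7.63%). The smallest two-sided p of an exact permutation test with 2 libraries a group is 0.333, so single-gene calls rest on the spread that limma pools over genes and over both lines.

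The list of calls depended on having all 4 libraries. With 1 library left out, the lone library of that group is assumed to vary like the others. The number of called genes then fell to 4 without control 1, to 3 without control 2, to 3 without eKD2 replicate 1 and to 1 without eKD2 replicate 2. All 33 genes kept their direction in each of these fits, which reuse the same libraries. When the SK-N-MC libraries were fitted without RD-ES, 20 genes were called, and 14 of them were among the 33.

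**Figure D1:**
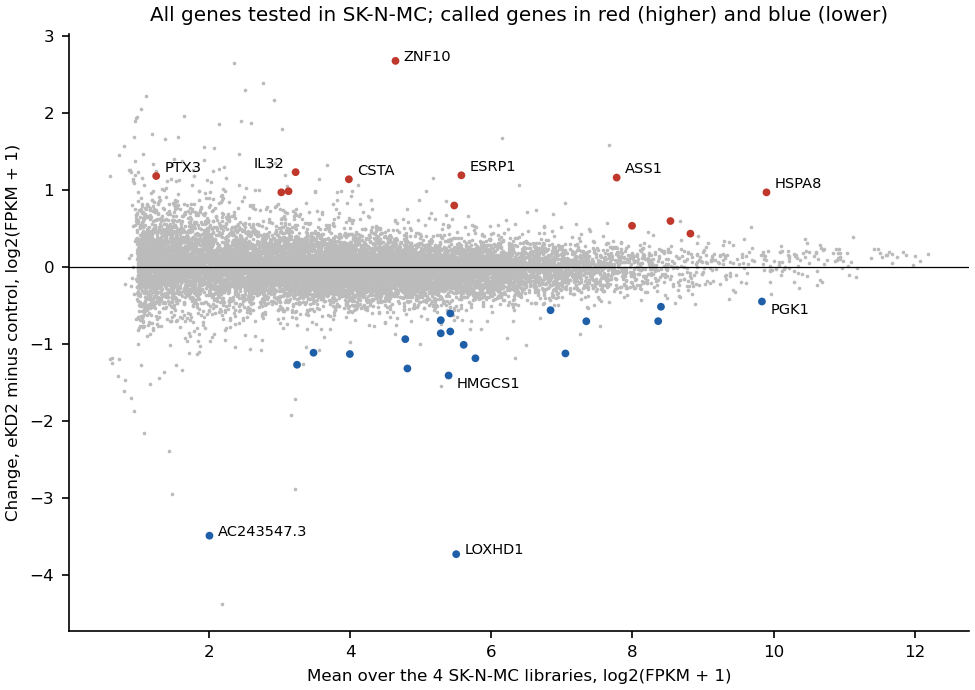
Each point is 1 of the 14195 genes tested, with its mean level over the 4 SK-N-MC libraries on the x axis (log2 of FPKM + 1) and its eKD2 minus control difference on the y axis (log2). Called genes are red where higher and blue where lower, and 11 of them carry their names. Among called genes LOXHD1 lies lowest at -3.73 and ZNF10 highest at 2.68, while 90% of all genes lie within 0.411 of 0.

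The genes that rose held few members of any one pathway. IL32 encodes interleukin 32, a cytokine made by lymphocytes and by epithelial and tumor cells. It was at 4.76 and 5.45 FPKM in the controls and at 12.8 and 13.98 FPKM in eKD2 cells (log2 difference of 1.24, SE 0.0951, limma adjusted p = 0.007). PTX3 encodes pentraxin 3, a secreted pattern recognition protein. It was at 0.685 and 0.477 FPKM in the controls and at 2.66 and 2.52 FPKM in eKD2 cells (1.19, SE 0.146, limma adjusted p = 0.038). PTX3 passed the minimum of 1 FPKM through its eKD2 libraries alone, so some difference followed from the filter and its p is given as a description. In IL32 the groups did not overlap. The 8 expressed genes of the NF-kB and cytokine list, by contrast, held no called gene and had a median of -0.23. Of the 8, 5 were separated lower and 0 higher, beside 26.4% and 23.1% of all genes. In that list NFKBIA, the feedback inhibitor of NF-kB, was at 59.4 and 67.2 FPKM in the controls and at 44.1 and 52.1 FPKM in eKD2 cells.

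ASS1, argininosuccinate synthase, which joins citrulline and aspartate in arginine synthesis, was at 136 and 156 FPKM in the controls and at 314 and 342 FPKM in eKD2 cells (log2 difference of 1.17, SE 0.108, limma adjusted p = 0.015). ALDH2, the mitochondrial aldehyde dehydrogenase, which shares bases with AC002996.1, rose from 33.9 and 31.4 to 55.3 and 60.3 FPKM (0.80, SE 0.0983, limma adjusted p = 0.038). AKR1B1, aldose reductase, rose from 4.69 and 5.75 to 10.9 and 11.7 FPKM (0.99, SE 0.125, limma adjusted p = 0.038). In each of these 3 genes the eKD2 libraries lay close together. OGT, the transferase that puts O-linked N-acetylglucosamine on nuclear and cytosolic proteins, rose from 211 and 210.0 to 300.0 and 313 FPKM (0.54, limma adjusted p = 0.041). In all 4 genes the lower eKD2 library stood above the higher control.

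In the list of 12 expressed arginine, proline and urea cycle genes, ASS1 was the 1 gene called. Of the 12, 6 were separated higher and 1 lower, beside 23.1% and 26.4% of all genes, with a list median of 0.12. PRODH, proline dehydrogenase, was at 3.15 and 3.32 FPKM in the controls and at 5.08 and 5.15 FPKM in eKD2 cells (0.53, limma adjusted p = 0.22). ALDH18A1, which makes the precursor of proline, was at 27.1 and 25.5 FPKM and at 19.0 and 22.1 FPKM (-0.34, limma adjusted p = 0.21).

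ESRP1 and CSTA, both known from epithelia, were also called. ESRP1 encodes a splicing regulator of epithelial isoforms and was at 31.6 and 29.5 FPKM in the controls and at 70.1 and 72.4 FPKM in eKD2 cells (log2 difference of 1.20, SE 0.105, limma adjusted p = 0.013). CSTA, cystatin A, an inhibitor of cysteine proteases found in skin, was at 9.75 and 9.49 FPKM and at 22.4 and 22.6 FPKM (1.15, SE 0.103, limma adjusted p = 0.038). Its RD-ES libraries had a mean under 1 FPKM and were left out of its fit. The summed level of the 4 epithelial markers was 4.26 and 4.93 FPKM in the controls and 4.04 and 3.67 FPKM in eKD2 cells, with KRT5 at 0 in all 4 libraries. EPCAM made up most of that sum, at 4.03 and 4.54 FPKM in the controls and at 3.68 and 2.96 FPKM in eKD2 cells. CDH1 and KRT19 were under 1 FPKM in all 4 libraries. The sum, in effect EPCAM, therefore did not move upward with ESRP1 and CSTA.

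ZFAS1 and C6orf48, both hosts of small nucleolar RNAs, were also called. ZFAS1 was at 383 and 392.2 FPKM in the controls and at 526 in both eKD2 libraries (log2 difference of 0.44, limma adjusted p = 0.038). C6orf48 was at 293 and 309 FPKM and at 447 and 468 FPKM (0.60, limma adjusted p = 0.02). ZFAS1 shares bases with ZNFX1 on the other strand, and the library kit kept no strand, so reads of the overlap cannot be told apart. ST20 overlaps ST20-MTHFS and AC015871.3 on its own strand, so reads of those overlaps cannot be told apart either. ST20 was at 4.46 and 5.17 FPKM in the controls and at 11.1 and 9.75 FPKM in eKD2 cells (0.98, limma adjusted p = 0.038).

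Of the 20 genes that fell, 9 were on the sterol and fatty acid synthesis lists and 1 was LOXHD1. Of the other 10, 4 act on RNA or in translation. HNRNPM, a nuclear RNA-binding protein that regulates splicing, was at 399 and 440.5 FPKM in the controls and at 249 and 267 FPKM in eKD2 cells (log2 difference of -0.70, SE 0.0748, limma adjusted p = 0.027). RNPS1, which joins splicing to the exon junction complex, fell from 137 and 139 to 91.5 and 95.5 FPKM (-0.56, limma adjusted p = 0.034). Both bind the transcript in the nucleus. RBM14, a coactivator with RNA recognition motifs, fell from 50.1 and 46.8 to 29.4 and 30.05 FPKM (-0.69, limma adjusted p = 0.032). EIF5, the initiation factor that makes eIF2 hydrolyse its GTP when the start codon is met, fell from 408 and 399 to 281 and 285 FPKM (-0.51, limma adjusted p = 0.038). The groups did not overlap in any of the 4. RBM14 shares bases with the readthrough gene RBM14-RBM4 and RNPS1 with AC009065.4, so their levels hold some uncertainty. The 49 expressed RNA helicases of the DDX and DHX families had no called gene and a median of -0.10. Of them 3 were separated higher and 22 lower, beside 23.1% and 26.4% of all genes.

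The rest of the fall was spread over ACAT2 and PGK1, described with their pathways, TTC1, a pseudogene and 2 genes known only by clone names. TTC1, a protein of tetratricopeptide repeats, was at 53.5 and 49.8 FPKM in the controls and at 33.8 and 33.7 FPKM in eKD2 cells (log2 difference of -0.60, limma adjusted p = 0.041). It shares bases with PWWP2A on the other strand. FRG2FP, a pseudogene of the FRG2 family, was at 85.6 and 77.4 FPKM and at 39.7 and 31.5 FPKM (-1.18, limma adjusted p = 0.029). FRG2 copies are close in sequence, so reads may belong to other copies. AL139819.1 was at 22.2 and 22.9 FPKM and at 9.39 and 10.2 FPKM (-1.13, limma adjusted p = 0.034). AC243547.3, annotated as protein-coding at chr1:145457276-145507835 on GRCh37, fell from 16.01 and 9.62 FPKM to 0.362 and 0.0580 FPKM (-3.48, SE 0.258, limma adjusted p = 0.0064). On the log2(FPKM + 1) scale this was next to LOXHD1 among called genes, whereas as a ratio of mean FPKM the fall was larger, at 98.4% against 93.0%. It passed the minimum of 1 FPKM through its controls alone, so its p too is a description. It shares bases with 4 tested genes, POLR3GL, RBM8A, LIX1L and ANKRD34A. Which gene its reads came from cannot be told from these values.

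**Figure D2:**
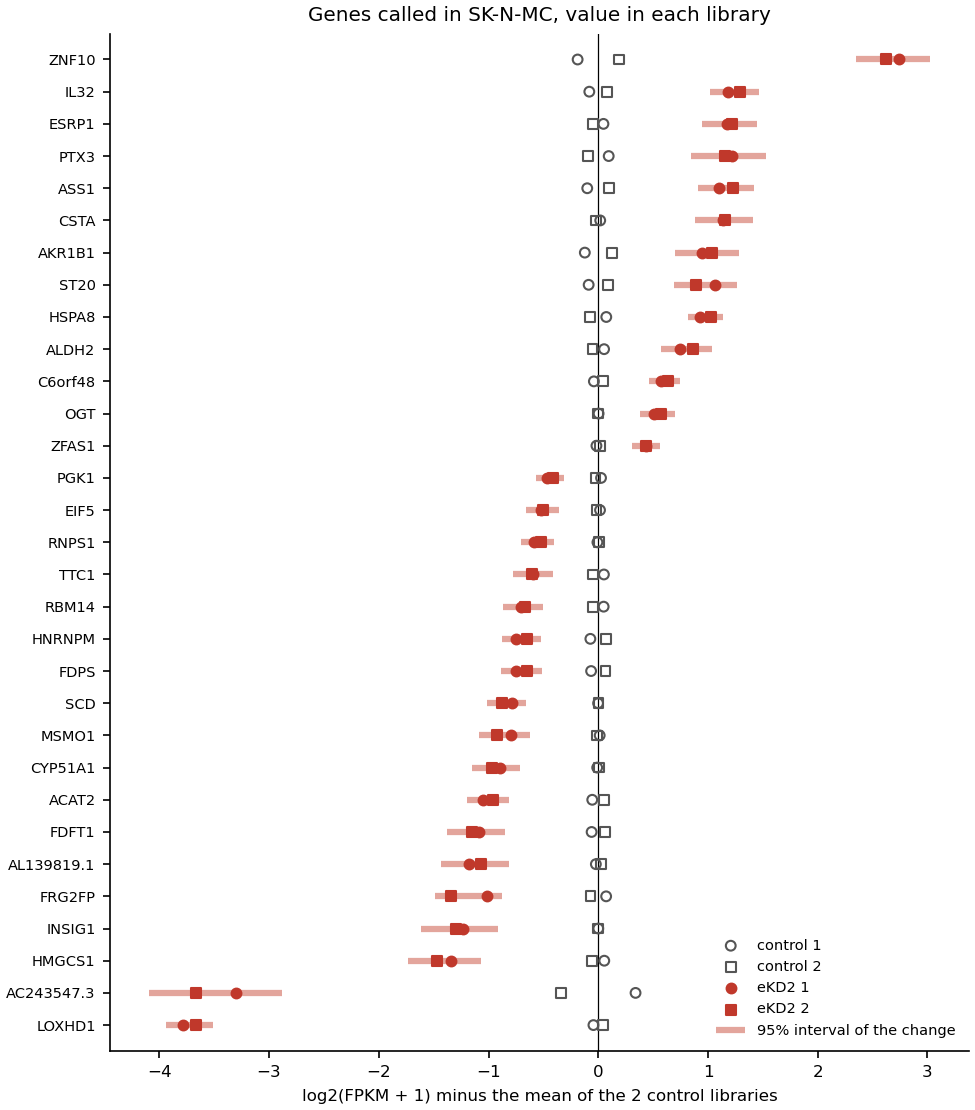
Of the 33 called genes, 31 are in rows, ordered by their log2 difference in SK-N-MC, with the value of each library on the x axis (log2 of FPKM + 1, less the mean of the 2 controls). Open symbols are the controls, filled symbols the eKD2 libraries (circles replicate 1, squares replicate 2), and bars the 95% interval of the difference under limma. In each row both filled symbols lie on one side of both open ones.

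Sterol genes were the list with the largest share of members called. Cholesterol is built from acetyl-CoA through mevalonate and squalene, and SREBP-2, encoded by SREBF2, turns on most enzymes of the path when sterols in the endoplasmic reticulum are low. Of the 24 list members, all tested, 8 fell, none rose, 21 were separated lower and 0 higher. Of all genes, 0.141% were called lower, 26.4% were separated lower and 23.1% higher. The list median was -0.59, beside -0.01 over all genes tested. In the order of the path, ACAT2, which makes acetoacetyl-CoA but was not on the list, fell from 65.6 and 70.8 to 32.4 and 34.5 FPKM (log2 difference of -1.01, SE 0.0820, limma adjusted p = 0.009). It shares bases with TCP1 on the other strand. HMGCS1, the synthase of HMG-CoA, fell from 70.1 and 64.9 to 26.1 and 23.7 FPKM (-1.40, SE 0.141, limma adjusted p = 0.02). Neither of these early steps had an overlap between the groups.

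FDPS, which makes farnesyl diphosphate, fell from 197 and 216 to 122 and 131 FPKM (-0.70, limma adjusted p = 0.032). FDFT1, squalene synthase, fell from 186 and 203 to 90.9 and 87.1 FPKM (-1.12, limma adjusted p = 0.02). Together they carry the chain from isoprenoids to squalene. SQLE, which oxidizes squalene, was at 77.1 and 72.5 FPKM and at 53.5 and 52.0 FPKM (-0.50, limma adjusted p = 0.23). Of the late steps, CYP51A1 fell from 36.7 and 37.2 to 19.4 and 18.5 FPKM (-0.93, limma adjusted p = 0.02). CYP51A1 removes the first methyl group of lanosterol, and MSMO1 starts the removal of the others. MSMO1 fell from 51.9 and 50.9 to 29.3 and 26.7 FPKM (-0.86, limma adjusted p = 0.034). Called genes thus lay both before squalene and after it. PMVK, HSD17B7 and SC5D were the 3 members whose groups overlapped. PMVK, phosphomevalonate kinase, was at 57.6 and 63.5 FPKM in the controls and at 59.6 and 63.6 FPKM in eKD2 cells.

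INSIG1, which holds SREBPs in the endoplasmic reticulum and is itself an SREBP target, fell from 13.7 in both controls to 5.27 and 4.99 FPKM (-1.26, limma adjusted p = 0.036). SREBF2 was at 91.8 and 101 FPKM and at 60.5 and 69.7 FPKM (-0.56, limma adjusted p = 0.11), with no overlap and no call. CYP51A1 shares bases with AKAP9 on the other strand. SCD, the desaturase that makes oleate, fell from 56.0 and 56.1 to 32.0 and 30.1 FPKM (-0.83, SE 0.0754, limma adjusted p = 0.014), and it was the 1 called gene of 17 in the fatty acid synthesis list, whose median was -0.07. FASN, fatty acid synthase, was at 75.9 and 60.5 FPKM and at 34.8 and 42.2 FPKM (-0.81, limma adjusted p = 0.089). In RD-ES the sterol list had a median of -0.12. The difference between the lines was called for CYP51A1 (-1.10, limma adjusted p = 0.046).

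**Figure D3:**
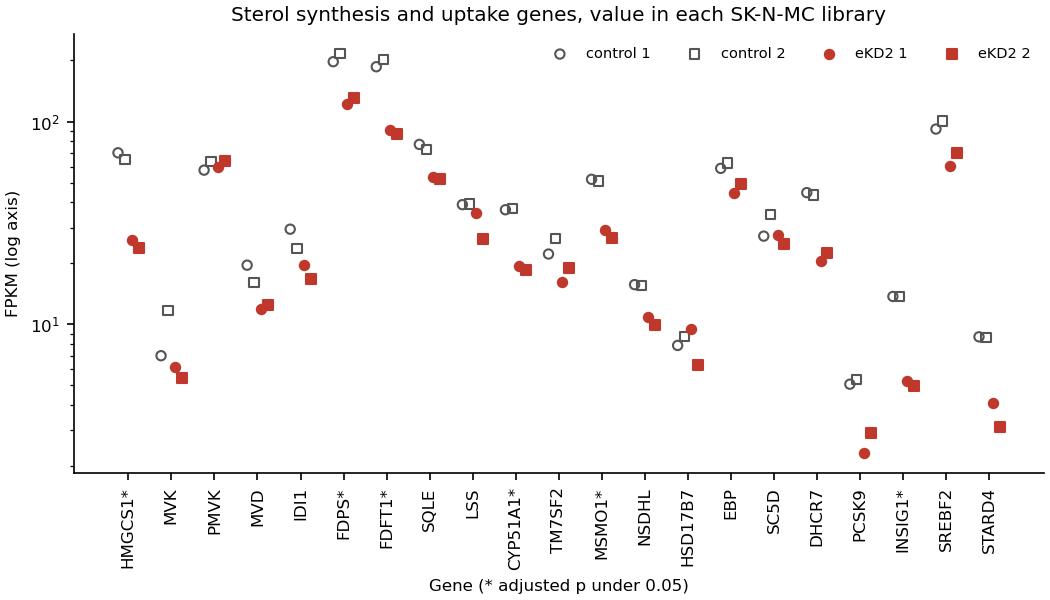
FPKM (y axis, log scale) of 21 of the 24 sterol synthesis and uptake genes (x axis, in the order of the path, asterisk for called genes) in each of the 4 SK-N-MC libraries. Open symbols are the controls and filled symbols the eKD2 libraries. In 18 of the 21 genes drawn both filled symbols lie under both open ones, by a wide gap in HMGCS1, and in PMVK they overlap.

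Promoters of HMGCS1 and FDPS are shown as examples of the called sterol genes. Each is the 250 bases before the gene's start in RefSeq (GRCh38.p14), with matches to CCAAT on either strand in capitals (ATTGG is CCAAT on the other strand). CCAAT is the box bound by NF-Y, a factor known to work beside SREBP. HMGCS1 is read on the minus strand at chr5:43313413-43313662, and FDPS on the plus strand at chr1:155308616-155308865.
HMGCS1 promoter: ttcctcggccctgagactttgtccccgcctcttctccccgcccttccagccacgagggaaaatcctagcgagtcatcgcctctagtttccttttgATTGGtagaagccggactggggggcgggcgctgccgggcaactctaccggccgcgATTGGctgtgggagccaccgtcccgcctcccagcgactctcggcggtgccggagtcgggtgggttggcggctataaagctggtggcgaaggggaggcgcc
FDPS promoter: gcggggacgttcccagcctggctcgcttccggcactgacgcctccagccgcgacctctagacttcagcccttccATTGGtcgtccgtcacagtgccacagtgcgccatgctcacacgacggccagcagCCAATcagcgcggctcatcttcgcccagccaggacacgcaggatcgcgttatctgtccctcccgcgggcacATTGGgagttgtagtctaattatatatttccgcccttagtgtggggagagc
Of the 33 called genes, 22 had a promoter entry. CCAAT was found in 33.0% of all 27305 promoters and in 35.6% of those of genes tested. Among genes with an entry, it was in 10 of 13 that fell, 5 of 9 that rose and 15 of 18 sterol genes. It was not particular to these sets, with 22 of 32 S phase genes, 12 of 22 amino acid response genes and 6 of 20 heat shock genes. A match to these letters describes the sequence and does not show binding.

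HSPA8 was the called gene with the highest level in eKD2 cells. It encodes the constitutive heat shock cognate chaperone HSC70, which folds new proteins and strips clathrin from vesicles. It was at 716 and 647 FPKM in the controls and at 1294 and 1384 FPKM in eKD2 cells (log2 difference of 0.97, SE 0.0686, limma adjusted p = 0.0056). RD-ES had the opposite order, with 2897 and 2895 FPKM in the controls and 1822 and 1938 FPKM in eKD2 cells. The difference between the lines was 1.60 (limma adjusted p = 0.0012).

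The other 21 expressed heat shock genes held no called gene. In the whole list of 22, 6 were separated higher and 6 lower (27.3% each), beside 23.1% and 26.4% of all genes. HSP90AA1, the inducible cytosolic HSP90, was at 461 and 453 FPKM in the controls and at 332 and 328 FPKM in eKD2 cells (-0.47, limma adjusted p = 0.062). HSPA9, the mitochondrial HSP70, was at 755 and 762 FPKM and at 905 and 909 FPKM (0.26, limma adjusted p = 0.21). DNAJA1, a partner of HSP70 proteins, was at 88.9 and 95.01 FPKM and at 108 and 107 FPKM (0.22, limma adjusted p = 0.32). HSPA8 therefore stood apart from the list in size of change. Its list median of -0.03 turned positive when libraries were scaled to a common median.

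The HSPA8 promoter (RefSeq, GRCh38.p14, chr11:123062137-123062386, minus strand) is shown with its matches to the heat shock element, the site of HSF1, in capitals. It has 2 matches, and such a match was found in 0.439% of all promoters and in 2 of 20 heat shock genes with an entry, HSPA8 and CHORDC1.
HSPA8 promoter: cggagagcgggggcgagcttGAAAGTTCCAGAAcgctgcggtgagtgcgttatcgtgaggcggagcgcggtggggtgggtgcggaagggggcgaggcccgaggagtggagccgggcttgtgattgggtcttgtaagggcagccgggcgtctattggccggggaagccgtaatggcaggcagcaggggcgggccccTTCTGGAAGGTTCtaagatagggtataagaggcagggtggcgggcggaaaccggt

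Most genes of DNA replication were separated lower, with no single gene called. Of 43 expressed S phase genes, 33 were separated lower and 2 higher, beside 26.4% and 23.1% of all genes, and 20 were lower at an unadjusted p under 0.05, beside 7.63% of all genes. The median was -0.22 here and 0.02 in RD-ES. DTL, which guides the destruction of the licensing factor CDT1, was at 54.6 and 56.4 FPKM in the controls and at 31.6 and 36.9 FPKM in eKD2 cells (log2 difference of -0.68, limma adjusted p = 0.055). CDC6, which loads the replicative helicase, was at 61.1 and 67.3 FPKM and at 47.9 and 48.5 FPKM (-0.40, limma adjusted p = 0.16). RRM2, the small subunit of ribonucleotide reductase, was at 263 and 274 FPKM and at 202 and 208 FPKM (-0.39, limma adjusted p = 0.16). The groups did not overlap in any of these 3, and the steps were small.

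Of 52 expressed G2 and mitosis genes, 24 were separated lower and 7 higher, beside 26.4% and 23.1% of all genes. The list median was -0.10. TPX2, which builds the spindle and activates Aurora A, was at 112 and 117 FPKM in the controls and at 84.2 and 82.5 FPKM in eKD2 cells (-0.46, limma adjusted p = 0.074). HMGB2 lay the other way, at 566 and 576 FPKM and at 646 and 637 FPKM (0.17, limma adjusted p = 0.29). The letters TTTCCCGC, a form of the E2F site, were found on either strand in 7 of 32 S phase promoters, in 1.42% of all promoters and in none of the 13 promoters of genes that fell.

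Most proteasome and glycolysis genes were separated lower too. Of 34 proteasome genes, 20 were separated lower and 4 higher, beside 26.4% and 23.1% of all genes. At an unadjusted p under 0.05, 14 were lower, beside 7.63% of all genes, and the median was -0.14. PSMC1, an ATPase of the base, was at 101 and 98.5 FPKM in the controls and at 62.1 and 60.0 FPKM in eKD2 cells (log2 difference of -0.70, limma adjusted p = 0.072). PSMD6, a lid subunit, was at 34.8 FPKM in both controls and at 24.0 and 23.8 FPKM (-0.52, limma adjusted p = 0.065). None of the proteasome genes was called.

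Of 19 glycolysis genes, 12 were separated lower and 1 higher, beside 26.4% and 23.1% of all genes, and the median was -0.18. PGK1, phosphoglycerate kinase, was the 1 gene called, from 1083 and 1046 FPKM to 769 and 797 FPKM (-0.44, SE 0.0542, limma adjusted p = 0.038). It shares bases with ATP7A and AL356235.1. ALDOC, the brain aldolase, was at 12.2 and 15.7 FPKM and at 6.09 and 6.47 FPKM (-1.03, limma adjusted p = 0.065), and LDHA, lactate dehydrogenase A, was at 1065 and 1189.9 FPKM and at 876 and 904 FPKM (-0.34, limma adjusted p = 0.13).

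The 23 expressed hypoxia genes, some of them glycolytic, had a median of -0.14 and no gene called, but PGK1 was not on this list. Of them 12 were separated lower and 2 higher, beside 26.4% and 23.1% of all genes. BNIP3, a mitophagy receptor, was at 36.0 and 36.3 FPKM and at 20.8 and 23.2 FPKM (-0.69, limma adjusted p = 0.062). P4HA2, a collagen prolyl hydroxylase, went the other way, at 7.35 and 6.73 FPKM in the controls and at 15.6 and 14.4 FPKM in eKD2 cells (1.00, limma adjusted p = 0.10). The hypoxia list was thus not uniform in direction.

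Most genes of the cytosolic ribosomal protein list were separated higher, by small steps. Of 82 cytosolic ribosomal protein genes, 50 were separated higher and 3 lower, beside 23.1% and 26.4% of all genes. Before adjustment, 33 of the 82 had a limma p under 0.05 and a higher level, beside 6.38% of all genes. None was called. The median was 0.14 in SK-N-MC and -0.04 in RD-ES, and it came to 0.03 under quantile normalization. RPS12, of the small subunit, was at 1450.4 and 1550.3 FPKM in the controls and at 1742 and 1837 FPKM in eKD2 cells (log2 difference of 0.25, limma adjusted p = 0.16). RPL5, of the large subunit, was at 1307 and 1293 FPKM and at 1511 and 1506 FPKM (0.21, limma adjusted p = 0.18). RPS27L, a p53-responsive relative of RPS27, lay the other way at 56.7 and 55.7 FPKM and at 40.5 and 36.9 FPKM (-0.53, limma adjusted p = 0.065). Reads of ribosomal protein genes can be shared with their many processed pseudogenes, so these levels hold some uncertainty.

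Of 50 nuclear genes of complex I and ATP synthase, 27 were separated higher and 4 lower, beside 23.1% and 26.4% of all genes. The list median was 0.13. NDUFB8 was at 66.5 and 81.5 FPKM in the controls and at 96.9 and 103 FPKM in eKD2 cells (0.44, limma adjusted p = 0.21). Among 23 expressed hosts of small nucleolar RNAs, 11 were separated higher and 5 lower, beside 23.1% and 26.4% of all genes. The median of these hosts was 0.07, and none of them was called. ZFAS1 and C6orf48, the called hosts described above, were not on this list. GAS5 was at 705 and 659 FPKM and at 951 and 1015 FPKM (0.53, limma adjusted p = 0.062). SNHG5 was at 276 and 261 FPKM and at 357 and 365 FPKM (0.42, limma adjusted p = 0.076). SNHG17 was at 86.3 and 95.8 FPKM and at 65.4 and 69.3 FPKM (-0.43, limma adjusted p = 0.14). GAS5 and SNHG5 thus had no overlap upward and SNHG17 none downward.

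Genes of cell contact and of the YAP pathway were not called. YAP and TEAD act together as a coactivator and DNA-binding partner that report on cell contact and tension. Of 16 expressed YAP and TEAD targets, 7 were separated lower and 3 higher, beside 26.4% and 23.1% of all genes. The list median was -0.15. AMOTL2, an angiomotin that binds YAP and is its target, was at 12.7 and 19.7 FPKM in the controls and at 7.36 and 8.70 FPKM in eKD2 cells (log2 difference of -0.90, SE 0.198, limma adjusted p = 0.16). CYR61, a secreted matricellular target, was at 12.02 and 13.3 FPKM and at 8.06 and 8.44 FPKM (-0.56, limma adjusted p = 0.24). CTGF, another, was at 3.25 and 3.46 FPKM and at 2.40 and 1.96 FPKM (-0.46, limma adjusted p = 0.26). The controls stood above the eKD2 libraries in all 3, but the spread of the 2 AMOTL2 controls was wide.

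Of 21 integrins, laminins and adhesion genes, 9 were separated higher and 2 lower, beside 23.1% and 26.4% of all genes. The list median was 0.14. NCAM1, a neural adhesion molecule, was at 20.2 and 18.8 FPKM in the controls and at 25.8 and 29.9 FPKM in eKD2 cells (0.49, limma adjusted p = 0.28). FN1, fibronectin, was at 71.0 and 71.1 FPKM and at 84.2 and 103 FPKM (0.39, limma adjusted p = 0.32), while ITGB5 was at 90.8 and 96.7 FPKM and at 76.5 and 78.2 FPKM (-0.27, limma adjusted p = 0.21).

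Of 18 expressed antioxidant targets of NRF2, 9 were separated higher and 4 lower, beside 23.1% and 26.4% of all genes. The list median was 0.08. FTH1 and FTL are the ferritin chains that store iron. FTH1 was at 1193 and 1268 FPKM in the controls and at 1549.9 and 1631 FPKM in eKD2 cells (0.37, limma adjusted p = 0.09). FTL was at 1854 and 2058 FPKM and at 2464 and 2680.5 FPKM (0.40, limma adjusted p = 0.12). NFE2L2, which encodes NRF2, was itself lower, at 75.2 and 77.8 FPKM and at 57.2 and 60.7 FPKM (-0.37, limma adjusted p = 0.18).

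The clearest contrast between the lines lay in genes of the amino acid response. ATF4 is the transcription factor made when eIF2 is phosphorylated in starved or stressed cells, and it turns on amino acid synthesis and stress genes. A test of the difference between the change in SK-N-MC and that in RD-ES could be run for 12763 genes, and 18 were called, 0.141% of them. In 15 of the 18 the change in SK-N-MC was the lower one, and in 13 the change had opposite signs in the lines. That count of signs takes in small changes, such as -0.05 for ULBP1 in SK-N-MC and 0.16 for CYP51A1 in RD-ES. The amino acid response list held 8 of the 18 genes. Its 24 members with values in both lines had an RD-ES median of 0.60, whereas the 26 members tested in SK-N-MC gave -0.08. Of these 26, 12 were separated lower and 5 higher, beside 26.4% and 23.1% of all genes, and none was called.

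CHAC1, which degrades glutathione, was at 96.9 and 107 FPKM in the SK-N-MC controls and at 49.97 and 57.1 FPKM in eKD2 cells. Its RD-ES levels were 3.02 and 3.63 FPKM in the controls and 44.3 and 56.3 FPKM with the enhancer silenced. The difference between the lines was -4.48 on the log2 scale (SE 0.201, limma adjusted p = 0.000863). The eKD2 levels of the lines overlapped, while the controls were far apart. ATF3, a stress-induced repressor, was at 58.4 and 61.8 against 37.9 and 36.2 FPKM in SK-N-MC and at 11.1 and 8.82 against 52.3 and 55.1 FPKM in RD-ES (-3.01, limma adjusted p = 0.000978). SESN2, a leucine sensor that restrains mTORC1, was at 28.0 and 27.8 against 15.7 and 17.8 FPKM in SK-N-MC and at 5.11 and 5.56 against 26.9 and 28.3 FPKM in RD-ES (-2.88, limma adjusted p = 0.000902). DDIT4, another brake on mTORC1, was at 64.4 and 69.3 against 48.5 and 54.8 FPKM in SK-N-MC and at 4.42 and 4.26 against 20.4 and 21.1 FPKM in RD-ES (-2.40, limma adjusted p = 0.00115). In all 4 genes both SK-N-MC controls were above both RD-ES controls.

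Within SK-N-MC the list was mixed. TRIB3, a pseudokinase that feeds back on ATF4, was at 73.7 and 77.4 FPKM in the controls and at 122 and 132 FPKM in eKD2 cells (0.74, limma adjusted p = 0.062). ATF5 was at 322 and 342 FPKM and at 483 and 523 FPKM (0.60, limma adjusted p = 0.08), and ASNS, asparagine synthetase, was at 437 and 422 FPKM and at 557 and 516 FPKM (0.32, limma adjusted p = 0.19). These 3 were higher in eKD2 cells of both lines, with RD-ES differences of 1.53, 1.09 and 1.25. With 1 SK-N-MC library left out, 7 to 9 genes differed between the lines.

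The CHAC1 promoter (RefSeq, GRCh38.p14, chr15:40953221-40953470, plus strand) is shown because CHAC1 had the smallest p for a difference between the lines. Capitals mark TTGCATCA, which is TGATGCAA on the other strand, a composite site that ATF4 can bind. That 8-base word was found in 0.82% of all promoters, and CHAC1 was the 1 gene with it among 22 members of the list with an entry.
CHAC1 promoter: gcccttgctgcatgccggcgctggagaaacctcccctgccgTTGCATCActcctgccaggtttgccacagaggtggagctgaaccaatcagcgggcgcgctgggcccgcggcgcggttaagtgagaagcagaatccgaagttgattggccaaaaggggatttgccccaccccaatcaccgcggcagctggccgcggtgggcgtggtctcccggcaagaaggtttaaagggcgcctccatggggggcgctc

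**Figure D4:**
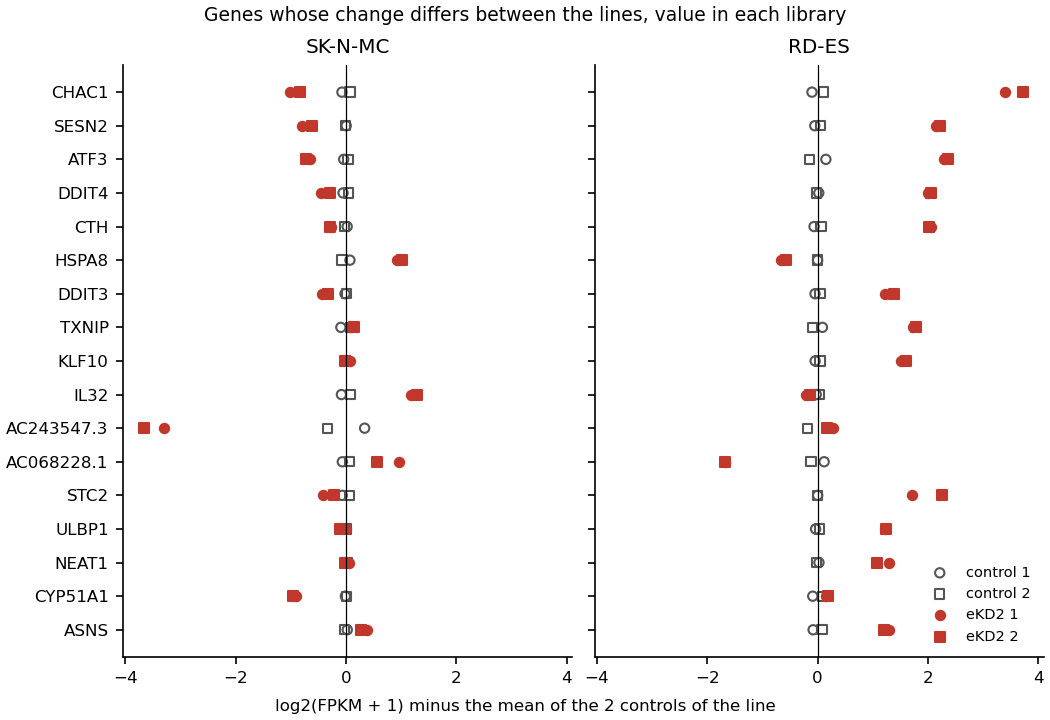
Of the 18 genes whose change differed between the lines, 17 are in rows, ordered by p, with SK-N-MC in the left panel and RD-ES in the right. The x axis gives each library's log2 of FPKM + 1 less the mean of the 2 controls of its line, with open symbols for controls and filled symbols for eKD2 libraries. CHAC1, SESN2 and ATF3 lie left of 0 in SK-N-MC and right of 0 in RD-ES, and HSPA8 lies the other way.

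Zinc finger genes and long non-coding RNAs lay on opposite sides. ZNF genes form the largest family of DNA-binding proteins, and many carry a KRAB domain. Of 439 expressed genes with a ZNF symbol, 170 were separated lower and 56 higher, 38.7% and 12.8% beside 26.4% and 23.1% of all genes. The median was -0.09 in SK-N-MC and 0.12 in RD-ES, and ZNF10 was the 1 gene called. ZNF346 was at 37.4 and 40.7 FPKM in the controls and at 22.8 and 26.9 FPKM in eKD2 cells (log2 difference of -0.64, limma adjusted p = 0.096). ZNF568 was at 10.2 and 10.4 FPKM and at 7.59 and 6.999 FPKM (-0.45, limma adjusted p = 0.16). Both had no overlap between the groups.

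Of 1390 tested long non-coding RNA genes, 28.3% were separated higher and 16.4% lower, and of 11941 protein-coding genes 22.3% and 28.3%. The medians were 0.06 and -0.02. The direction differed with level as well, though the share higher did not change steadily. Among genes with a mean of 1 to 2 FPKM, 26.3% were separated higher and 17.9% lower. Among those of 10 to 50 FPKM the shares were 19.1% and 29.8%, and among those over 50 FPKM 26.0% and 29.9%. What part the level had in the contrast between gene classes was not tested.

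Near the silenced repeat LOXHD1 was the 1 gene called. Within 1000 kb of the repeat, 12 other genes were tested, of which 5 were separated lower and 0 higher, beside 26.4% and 23.1% of all genes, and 2 were lower at an unadjusted p under 0.05, beside 7.63%. These counts leaned lower but rest on 12 genes, and a difference from the background was not tested. HAUS1, a subunit of the augmin complex of the spindle, was at 116 and 143 FPKM in the controls and at 79.0 and 83.8 FPKM in eKD2 cells (log2 difference of -0.65, SE 0.108, limma adjusted p = 0.081). PIAS2, a SUMO ligase, was at 19.9 and 22.7 FPKM and at 15.3 and 16.1 FPKM (-0.42, limma adjusted p = 0.20). The nearest tested gene, ST8SIA5, a sialyltransferase, was at 1.62 and 2.54 FPKM and at 1.26 and 1.42 FPKM (-0.38, SE 0.211, limma adjusted p = 0.47). RNF165, on the other side, overlapped between the groups. ATP5A1 and C18orf25 were the other 2 genes separated lower.

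Lists of known EWSR1::FLI1 targets had medians near 0. Of 28 expressed targets activated by EWSR1::FLI1, 11 were separated lower and 4 higher, beside 26.4% and 23.1% of all genes. The list median was -0.06, and its sign depended on which libraries were kept. EZH2, the Polycomb methyltransferase, was at 136 and 137 FPKM in the controls and at 109 and 106 FPKM in eKD2 cells (log2 difference of -0.34, limma adjusted p = 0.13). FLI1, whose reads include the fusion, was at 25.7 and 26.9 FPKM and at 24.2 and 23.2 FPKM (-0.15, limma adjusted p = 0.54), and EWSR1 was at 173 and 170.1 FPKM and at 134 and 142 FPKM (-0.31, limma adjusted p = 0.24). Of 12 expressed targets repressed by the fusion, 3 were separated each way. Both lists are shorter than the sets of activated and repressed genes that the study tested. For its own sets the study reports enrichment downward and upward, respectively, in eKD2 cells.

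Of 20 neural crest and neuronal transcription factors, 11 were separated lower and 2 higher, beside 26.4% and 23.1% of all genes. The list median was -0.14. ID4 was at 39.5 and 37.0 FPKM and at 29.0 and 26.6 FPKM (-0.45, limma adjusted p = 0.17). Of 25 expressed interferon-stimulated genes, 7 were separated higher and 1 lower, beside 23.1% and 26.4% of all genes, with a median of 0.04. The 8 expressed hair cell genes, with LOXHD1 not counted among them, had 0 separated higher and 1 lower. Of the 53 lists described, 8 held a called gene.

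**Figure D5:**
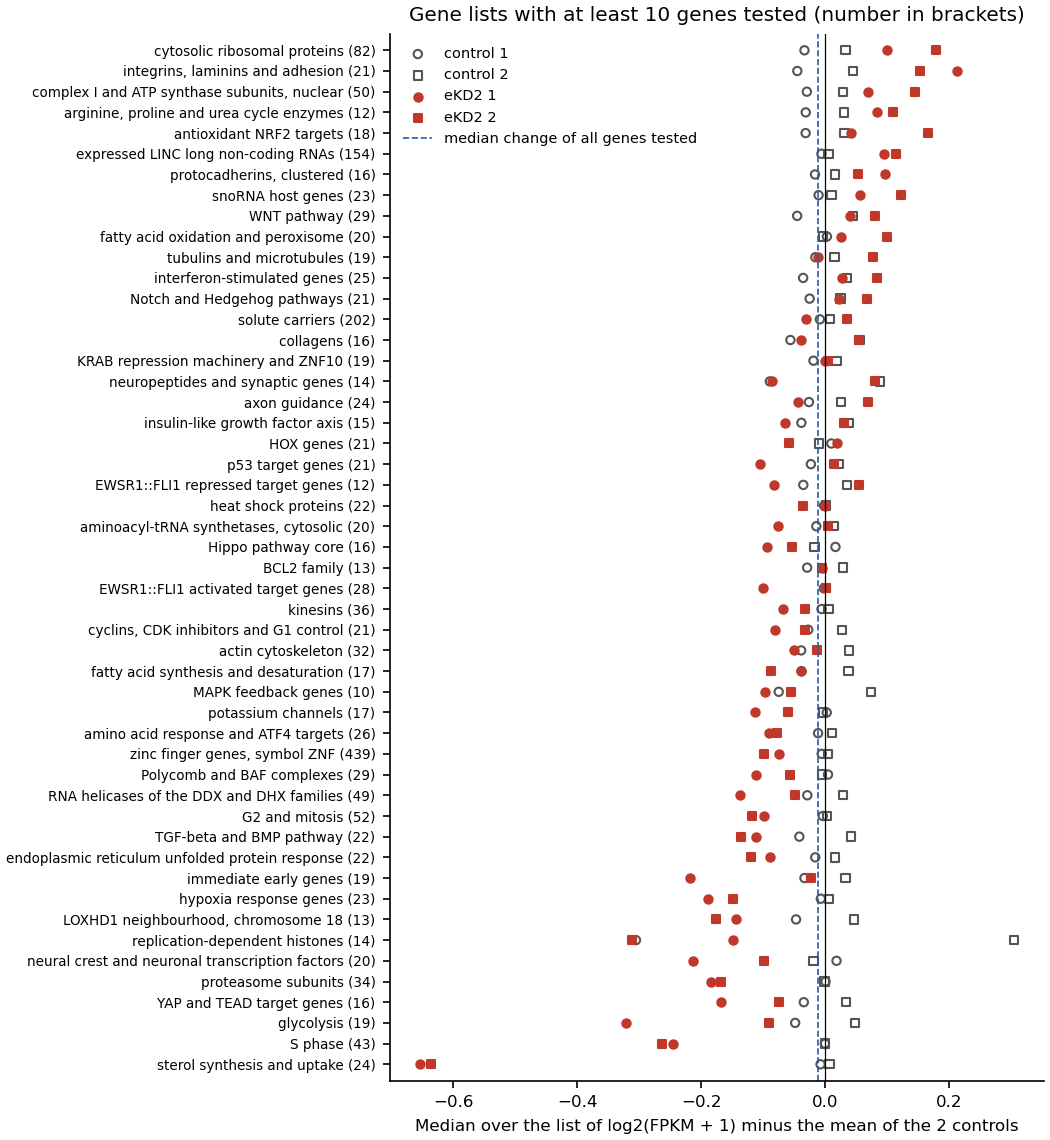
Gene lists with at least 10 genes tested are in rows, ordered by the median log2 difference, with the number of genes in brackets. The x axis gives, for each library, the median over the list of log2 of FPKM + 1 less the mean of the 2 controls (open symbols controls, filled symbols eKD2), and the dashed line the median difference of all genes, -0.01. The sterol list lies apart at -0.65 and -0.64 in the eKD2 libraries, and S phase comes next.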

How the data were processed

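Total RNA of both lines, SK-N-MC and RD-ES, was poly-A selected, prepared with a kit that keeps no strand and sequenced as single 75-base reads (2 libraries a group, 4 groups, 8 libraries). Per the study's methods the authors aligned reads with STAR to GRCh37, estimated transcripts with Cufflinks and deposited FPKM values from Cuffnorm. The study's own test used DESeq2 on raw counts, not analysed here. FPKM is scaled to length and library total, so depth is unknown and a few abundant genes can shift the rest. Nothing says more of the replicates than that they are biological, so p-values measure the spread between these libraries.

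Genes that averaged 1 FPKM or more across the 4 SK-N-MC libraries were kept, and small RNA genes were left out. The limma package (version 3.58.1 in R 4.3.3, trend on) was fitted to log2(FPKM + 1) over all 8 libraries with 1 mean a group. RD-ES values of 1432 genes with a mean under 1 FPKM there were set to missing. Tests are two-sided, Benjamini-Hochberg adjusted over all genes tested and called under 0.05. Fold changes on the log2(FPKM + 1) scale understate those of low genes. Adjustment was over all genes and not over single lists.

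The rule for named genes took the called genes by size of change, up to 30 (31 of the 33 are given here), up to 4 members of each list with the smallest p, the 10 genes that differed most clearly between the lines, genes near LOXHD1 and a fixed set (LOXHD1, SCD, AMOTL2, EWSR1, FLI1). Other genes were named after their values were seen. The libraries, genes and lists were chosen with earlier results of these data known. Scripts were tested on simulated data. There were 14 alternative settings. Some genes and a sequence are not reported here. Promoter sequences came from RefSeq (GRCh38.p14), and the GGAA runs from the reference genome (GRCh37). Figures were drawn with matplotlib 3.10.9.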

Additional observations from a re-analysis of the deposited data

Results flagged for a closer look

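A test of the difference between the lines (limma, 12763 genes, 2 libraries a group) marked 18 genes whose eKD2 minus control change was not the same in SK-N-MC and RD-ES, of which 17 are given. The values that follow are the SK-N-MC change less the RD-ES change on the log2 scale. Members of the amino acid response list had CHAC1 at -4.48, ATF3 at -3.01, SESN2 at -2.88, DDIT4 at -2.40, CTH at -2.32, STC2 at -2.30, DDIT3 at -1.68 and ASNS at -0.93. Each of these 8 genes was higher in both eKD2 libraries than in both controls in RD-ES. In SK-N-MC both eKD2 libraries were lower than both controls in 7 of them and higher in ASNS. Outside that list, TXNIP was at -1.64, KLF10 at -1.53, ULBP1 at -1.29 and NEAT1 at -1.16, and in SK-N-MC these 4 genes overlapped between the groups. The gene with the clone name AC243547.3 was at -3.71. The sterol gene CYP51A1 was at -1.10. Positive differences were 2.44 for AC068228.1, 1.60 for HSPA8 and 1.42 for IL32. AC068228.1, a processed pseudogene, was at 2.46 and 1.93 FPKM in the RD-ES controls and was listed at 0 in both RD-ES eKD2 libraries. It met the minimum of 1 FPKM in RD-ES through those controls alone, so its difference is given as a description. Whether the guide, the amount of vector or the state of the RD-ES controls had a part in these differences was not tested.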

How the results depend on the processing

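LOXHD1 was called in every setting tried, with log2 differences of -3.83 to -3.67 and limma adjusted p of 4e-06 to 0.00279, and all 33 called genes kept their direction in each setting that tested them. Counts moved more. Against 33 called genes (13 higher, 20 lower), SK-N-MC fitted alone gave 20 (9 and 11), a minimum of 5 FPKM gave 55 (23 and 32), no filter gave 6 (2 and 4), quantile normalization gave 58 (28 and 30), no variance trend gave 16 (7 and 9), and scaling to a common median gave 38 (20 and 18). With 1 library left out, the lone library being assumed to vary like the others, 1 to 4 genes were called (0 to 2 higher, 1 to 2 lower). The count separated and at least 1.5-fold apart was 497, and it was 201 at 5 FPKM, 839 with a pseudocount of 0.1 and 630 to 925 with 1 library left out. The 18 genes that differed between the lines became 10 with no filter and 7 to 9 with 1 library left out. With the replicate block, 2 genes were called (0 higher, 2 lower), LOXHD1 and AC243547.3, and 9 differed between the lines. The replicate numbers share only a number (r = 0.0574 across genes between the deviations of same-numbered libraries). Among genes with an unadjusted p under 0.05, the share higher in eKD2 cells was 45.5%, and 56.1% under median scaling (1092 higher, 854 lower). KLF10, at 0.03, came to between -0.0137 and 0.0767 with 1 library left out. ZNF10 missed the threshold in 2 settings, with an adjusted p of at most 0.0566. Medians of 7 lists near 0 (heat shock, hair cell, repressed targets of the fusion, axon guidance, insulin-like growth factor axis, KRAB and HOX) changed sign with scaling. The cause of these shifts was not tested. Without counts or depth, low genes cannot be given a counting error.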

Other observations

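Some genes with wide gaps between the groups were not called, and they were chosen here by size after their values were seen. FBXL16, an F-box protein of nervous tissue, was at 1.05 and 1.01 FPKM in the controls and at 6.78 and 20.2 FPKM in eKD2 cells, whose libraries differed widely from each other (log2 difference of 2.66, limma adjusted p = 0.15). ATP2A1, the calcium pump of fast muscle, was at 0.677 and 0.489 FPKM and at 5.93 and 4.48 FPKM (1.96, limma adjusted p = 0.081). It passed the minimum of 1 FPKM through its eKD2 libraries alone. Some of its difference thus followed from the filter, and its p is given as a description. The 3 skeletal muscle markers stayed under 1 FPKM in all 4 libraries. BEX1, a neuronal adaptor, was at 2.41 and 1.37 FPKM and at 5.56 and 6.23 FPKM (1.28, limma adjusted p = 0.14). In all 3 genes the groups did not overlap.

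Lower in eKD2 cells were SRRM4, the neuronal splicing factor that includes microexons, at 6.71 and 8.68 FPKM and at 2.84 and 3.51 FPKM (log2 difference of -1.05, limma adjusted p = 0.13), and PDGFRB, a receptor tyrosine kinase of mesenchymal cells, at 5.49 and 7.45 FPKM and at 3.91 and 1.68 FPKM (-1.03, limma adjusted p = 0.26). AL354808.1 was at 9.07 and 41.3 FPKM in the controls and was listed at 0 in both eKD2 libraries, and its controls lay far apart. It passed the minimum of 1 FPKM through its controls alone.

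Of 17 expressed potassium channel genes, none was called under limma. At an unadjusted p under 0.05, 3 were higher and 3 lower, beside 6.38% and 7.63% of all genes. The list had 5 separated higher and 8 lower, beside 23.1% and 26.4% of all genes, with a median of -0.08. KCNG1 was at 3.13 and 2.90 FPKM in the controls and at 6.41 and 8.08 FPKM in eKD2 cells (1.03, limma adjusted p = 0.12), and KCNH2 was at 1.81 and 1.74 FPKM and at 3.26 and 3.85 FPKM (0.71, limma adjusted p = 0.16).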
